A study of Mus musculus with 12 samples.

Results

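Lubricin, the secreted product of Prg4, and 9 factors that are known or proposed to act upstream of it were followed across the zones of mouse articular cartilage. The members were the rows of the deposited expression table whose symbol was Prg4, Creb5, Osr1, Foxo1, Foxo3, Foxo4, Erg, Nfatc1, Nfatc2 or Gdf5, which gave 10 of 17536 genes. The 12 RNA-seq libraries formed 4 groups of 3. They came from articular chondrocytes of the superficial zone (SFZ) and of the deep zone (DZ), and for each zone from R3-Cntl mice (Runx3 fl/fl) and R3-cKO mice (Col2a1-Cre; Runx3 fl/fl), all of strain C57BL/6 by the labels (C57BL/6J in the study's methods) and 5 days old. Every group therefore carried the floxed Runx3 alleles, and the Cre was driven by the promoter of type II collagen, a gene of chondrocytes. SFZ cells were those released first by enzymes from the ends of femur and tibia, DZ cells were released by further digestion of the remaining cartilage, and cells were grown as a monolayer before RNA was taken. The study's supplement says that the cells were obtained from 3 individual littermate mice per genotype, so the spread within a group was taken as that between mice. No source used here says whether SFZ and DZ libraries of the same number came from the same mouse.

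Lubricin coats the cartilage surface and lowers friction between the joint surfaces. In the joint, Prg4 is a gene of SFZ chondrocytes and synovial lining cells, and its message is much lower deeper in the cartilage. Creb5 is a basic leucine zipper factor that binds cAMP response elements, the FoxO factors are forkhead proteins held out of the nucleus by insulin and growth factor signals, Erg is an ETS factor, and NFAT factors enter the nucleus after calcineurin removes their phosphates. Osr1 is a zinc finger factor of the odd-skipped family, and Gdf5 is a BMP family ligand of the embryonic joint interzone. The data addressed whether the Prg4 message followed the messages of these factors between zones, between genotypes and from library to library.

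The labels and the libraries were checked first. Runx3 stood at 10.73, 5.98 and 6.65 FPKM (a level scaled for transcript length and library size) in R3-Cntl SFZ and at 11.83, 9.07 and 3.42 under the label R3-cKO in that zone. In DZ it stood at 12.67, 12.65 and 7.66 in R3-Cntl and at 15.95, 12.66 and 8.14 under the label R3-cKO. The R3-cKO label thus went with no lower Runx3 level in either zone, and the 6 libraries are named by that label below. Whether reads of exons outside the floxed part keep up its level was not tested. The labelled cell types were checked against marker genes. The summed level of 10 chondrocyte genes, Col2a1 and Acan among them, was 5242 to 15474 FPKM in SFZ and 16199 to 36072 in DZ, and 8 superficial zone genes summed to 396 to 1824 in SFZ and to 59.4 to 179 in DZ. A list of 8 deep zone and hypertrophic genes summed to 450 to 670 in SFZ and to 815 to 2212 in DZ. Of these 8 genes, 2 were called lower in SFZ, and 2, Alpl (0.70) and Mmp13 (0.003), did not have a lower level there. Marker lists of other cells were summed in the same way. A list of 10 synovial and tendon fibroblast genes summed to 442 to 1195 FPKM in SFZ and to 39.1 to 407 in DZ. Col3a1 alone was at 334 to 969 in SFZ and at 29.0 to 377 in DZ. The zones were farther apart in Tnmd (14.1 to 85.6 against 0.0 to 1.14), Cd34 (12.6 to 27.9 against 0.06 to 1.09) and Thy1 (11.9 to 45.2 against 0.41 to 3.61). All 8 genes of this list that were tested had a positive difference, SFZ minus DZ. A list of 6 macrophage genes summed to 6.9 to 157 in SFZ and to 3.71 to 20.4 in DZ. Further, 5 osteoblast genes summed to 21.6 to 69.8 in SFZ and to 9.22 to 23.4 in DZ, 5 endothelial genes to 0.53 to 5.5 and 0.05 to 0.37, and 6 skeletal muscle genes to 4.09 to 72.5 and 4.94 to 18.7. The part of these cells in the zone results was not tested, and in such bulk samples more cells of a type and more RNA per cell cannot be told apart.

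Prg4 (chromosome 1, mm9, chr1:152296542-152313295, minus strand) separated the zones in R3-Cntl. Its levels were 22.24, 8.38 and 7.13 FPKM in R3-Cntl SFZ and 1.39, 1.22 and 1.47 in R3-Cntl DZ, so that the lowest SFZ library was far above the highest DZ library. The difference was 2.36 ± 0.38 on the log2(FPKM + 1) scale (SE, limma, adjusted p = 0.0485, 3 against 3 libraries), a 5.13-fold change on that scale. Of the 9 members tested, Prg4 was the only one called in this comparison, against a background of 1.24% of 11336 genes. The 140 calls behind that share became 505 without R3-Cntl SFZ replicate 1 and 0 to 4 without any other single library. The call sat at the threshold and was lost under most other settings, with adjusted p between 0.0247 and 0.228 over all of them. Leaving out any of 5 of the 6 libraries (all but R3-Cntl SFZ replicate 1) ended it.

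Under the label R3-cKO the zones were not apart in Prg4. Prg4 was at 6.95, 2.47 and 2.13 FPKM in SFZ and at 5.72, 1.32 and 2.14 in DZ, and the ranges overlapped. The difference was 0.27 ± 0.51 (SE, limma, adjusted p = 0.88). No member of 8 tested was called there, against a background of 0.0176% of genes (2 of 11336). When replicate number entered as a blocking term, which was treated as a pairing of the zones here, 352 genes and again no member passed. Over both genotypes Prg4 was higher in SFZ by 1.32 ± 0.46 without passing the test (limma, adjusted p = 0.0576; exact permutation test within genotype, two-sided p = 0.03). Leaving out R3-cKO SFZ replicate 2, R3-cKO SFZ replicate 3 or R3-cKO DZ replicate 1 brought it past the threshold (adjusted p = 0.0381, 0.0388 and 0.0226).

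**Figure D1:**
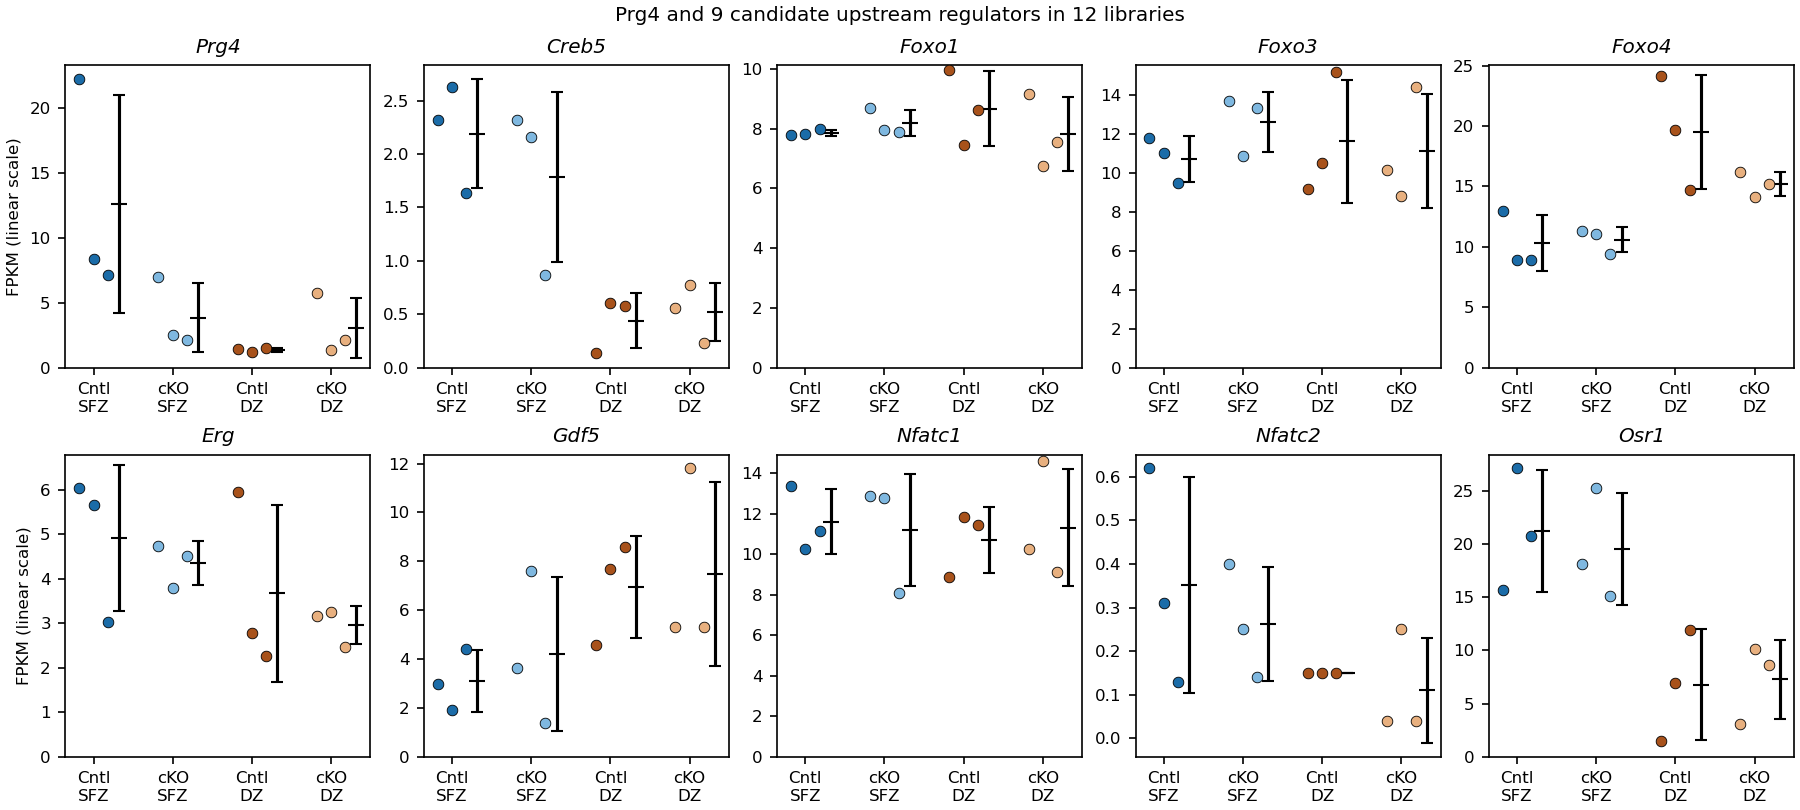
FPKM of each member (vertical axis, linear) in the 12 libraries, by group; points are libraries 1 to 3 from left to right, and the bar beside them is the mean with its SD (n = 3). Creb5, Osr1 and Foxo4 keep the zones apart in all 12 libraries, while the Prg4 levels of the DZ libraries labelled R3-cKO reach 5.72, above 2 of the 3 SFZ libraries with that label.

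Creb5 had the lowest p between the zones of the 9 members tested, at a low level. It lies on chromosome 6 (mm9, chr6:53523378-53646001, plus strand). Creb5 was at 2.32, 2.63 and 1.63 FPKM in R3-Cntl SFZ and at 2.32, 2.16 and 0.87 in R3-cKO SFZ, against 0.14, 0.60 and 0.58 in R3-Cntl DZ and 0.56, 0.77 and 0.23 in R3-cKO DZ. All 6 SFZ libraries lay above all 6 DZ libraries, although SFZ replicate 3 labelled R3-cKO, at 0.87, was only just above the highest DZ library. The zone difference over both genotypes was 1.0 ± 0.18 (SE, limma, adjusted p = 0.00381, exact permutation p = 0.005, the smallest that 400 arrangements can give). No DZ library reached 1 FPKM, so Creb5 entered the test only through the zone in which it was high. In R3-Cntl alone the difference was 1.15 ± 0.21 and narrowly missed the threshold (limma, adjusted p = 0.0554). It passed in a single model of all 12 libraries (limma, adjusted p = 0.0281). It also passed with the replicate number as a block (0.0479), though same-numbered libraries did not deviate together there. In R3-cKO alone too few libraries reached 1 FPKM for a test.

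A pair of Creb5 start sites on the plus strand is in the RefSeq promoter table (build GRCm38.p6, 250 bases before to 50 after each start). They are shown because Creb5 was the regulator with the lowest p between the zones and is itself a factor that binds cAMP response elements. Since Creb5 entered that test only through the zone in which it was high, this p is a reason for display and nothing more. Capitals mark the letters TGACGTCA, the full cAMP response element, which is its own reverse complement, and ACCGCA, the reverse complement of the RUNX letters TGCGGT.
Creb5, chr6:53287053-53287352: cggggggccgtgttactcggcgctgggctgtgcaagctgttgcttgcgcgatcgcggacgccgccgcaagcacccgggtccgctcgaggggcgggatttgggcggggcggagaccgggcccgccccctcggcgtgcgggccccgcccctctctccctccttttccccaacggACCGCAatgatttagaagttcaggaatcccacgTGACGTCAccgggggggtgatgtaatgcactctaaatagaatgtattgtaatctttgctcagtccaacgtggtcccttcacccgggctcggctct
Creb5, chr6:53573124-53573423: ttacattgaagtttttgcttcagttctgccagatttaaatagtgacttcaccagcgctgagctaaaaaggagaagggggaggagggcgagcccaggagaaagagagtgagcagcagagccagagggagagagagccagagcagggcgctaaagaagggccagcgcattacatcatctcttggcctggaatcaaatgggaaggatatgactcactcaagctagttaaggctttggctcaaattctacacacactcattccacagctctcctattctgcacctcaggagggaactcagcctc
The upstream start held TGACGTCA at positions -45 to -38 from the start site, and the downstream start held none. Of 32851 promoters of this length, 1.79% held TGACGTCA. The RUNX letters were searched on both strands in the forms TGTGGT and TGCGGT. The first of these was in 16.8% of promoters and in none of the 9 promoters of the 5 members the table holds. The other, TGCGGT, was in 6.45% of promoters and, among the members, in the upstream Creb5 promoter alone, on the minus strand at positions -78 to -73. Either form was in 22.4% of promoters. The forkhead letters TGTTTAC, also searched on both strands, were in 3.65% of promoters and, among the members, in 1 promoter of Nfatc2, on the minus strand of its sequence at positions -185 to -179. These matches describe letters, not bound sites, and the FPKM values do not say which start was used.

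Osr1 showed the widest zone difference of the regulators on the log2(FPKM + 1) scale, while with a pseudocount of 0.1 Creb5 differed by 1.91 and Osr1 by 1.79. It lies on chromosome 12 (mm9, chr12:9581248-9588305, plus strand). Its levels were 15.69, 27.11 and 20.73 FPKM in R3-Cntl SFZ and 18.11, 25.27 and 15.08 in R3-cKO SFZ. In DZ they were 1.46, 6.94 and 11.90 in R3-Cntl and 3.05, 10.11 and 8.64 in R3-cKO, so the zones did not overlap. The DZ libraries themselves spread widely, and in both genotypes DZ replicate 1 was the lowest. The difference over both genotypes was 1.59 ± 0.38 (SE, limma, adjusted p = 0.0137, exact permutation p = 0.005, the smallest possible), or 3.02-fold on that scale. Within R3-Cntl it was 1.78 ± 0.58 (limma, adjusted p = 0.122) and within R3-cKO 1.41 ± 0.41 (adjusted p = 0.226). With 1 library left out, the R3-Cntl value ran from 1.099, without DZ replicate 1, to 2.295. The R3-cKO value ran from 0.955 to 1.683.

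Foxo4 ran the other way. This forkhead gene of the X chromosome (mm9, chrX:98449867-98456212, plus strand) was at 12.98, 8.94 and 8.93 FPKM in R3-Cntl SFZ and at 11.32, 11.09 and 9.42 in R3-cKO SFZ. In DZ it was at 24.12, 19.67 and 14.69 in R3-Cntl and at 16.17, 14.15 and 15.16 in R3-cKO, every one above every SFZ library. The difference over both genotypes was -0.67 ± 0.14 (SE, limma, adjusted p = 0.0068, exact permutation p = 0.005, the smallest possible). In R3-Cntl the DZ libraries exceeded the SFZ libraries by more, by 0.85 on this scale, than the 0.48 in R3-cKO, but the test of that difference between genotypes gave 0.38 ± 0.26 (limma, adjusted p = 0.999).

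Over both genotypes 3 of 9 members tested were called between the zones, Creb5 and Osr1 higher and Foxo4 lower in SFZ. The background was 23.2% of 11765 genes called, 18.9% higher and 4.30% lower, and with 9 members a count of 3 is near that share. Creb5 reached 1 FPKM in 5 SFZ libraries and in no DZ library, so its place among the 9 rested on the zone in which it was high, and 2 of the other 8, Osr1 and Foxo4, were called. Without R3-Cntl SFZ replicate 2 the 2725 calls over all genes became 1624, and those 3 members kept theirs. These same 3 members were also the ones whose 6 SFZ and 6 DZ libraries did not overlap, as 11.3% of the genes tested did. The split of calls over all genes rested on the scaling: it was 2219 higher and 506 lower in SFZ as deposited, 864 and 1238 after quantile normalization and 1122 and 990 with size factors, as the median difference over all genes went from 0.14 to -0.04 and 0.01. The 3 members' calls held under each of the 6 other settings and each of the 12 omissions of a library.

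Gdf5 had its higher levels in DZ, with overlap. It was at 2.99, 1.90 and 4.41 FPKM in R3-Cntl SFZ and at 3.64, 7.59 and 1.37 in R3-cKO SFZ, and at 4.59, 7.69 and 8.58 in R3-Cntl DZ and 5.29, 11.83 and 5.32 in R3-cKO DZ. Only SFZ replicate 2 labelled R3-cKO reached into the DZ range. The zone difference over both genotypes was -0.89 ± 0.31 and did not pass (limma, adjusted p = 0.0596; exact permutation p = 0.03). It passed under both other scalings (limma, adjusted p = 0.0284 with quantile normalization and 0.0391 with median-of-ratios size factors). Without R3-cKO SFZ replicate 2 it was -1.10 and passed (adjusted p = 0.0168). It also passed with each replicate number within a genotype as a block (0.00957). That block treats the zones as paired in R3-Cntl too, where same-numbered libraries did not deviate together.

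Erg, an ETS factor of articular chondrocytes, ran from 3.03 to 6.05 FPKM in SFZ (median 4.63) and from 2.27 to 5.96 in DZ (median 2.98). Its zone difference was 0.41 ± 0.19 and was not called (limma, adjusted p = 0.145). A single library, R3-Cntl DZ replicate 1 at 5.96, stood apart from the other DZ libraries, which reached at most 3.25. Without that library the difference was 0.56 and was called (adjusted p = 0.0328), and over all alternatives the adjusted p ran from 0.0305 to 0.58. Within R3-cKO the zones of Erg did not overlap, at 4.74, 3.80 and 4.52 FPKM in SFZ against 3.16, 3.25 and 2.46 in DZ, together with Osr1 and Foxo4 as 3 of 8 members tested, where 21.0% of all genes did so.

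Foxo1, Foxo3 and Nfatc1 overlapped widely between the zones. Foxo1 ran from 7.78 to 8.68 FPKM in SFZ (median 7.93) and from 6.75 to 9.96 in DZ (median 8.09), and its zone difference was -0.03 ± 0.09. Foxo3 ran from 9.46 to 13.68 in SFZ (median 11.4) and from 8.81 to 15.16 in DZ (median 10.3), with a difference of 0.06 ± 0.14. Nfatc1 ran from 8.07 to 13.36 in SFZ (median 12.0) and from 8.87 to 14.59 in DZ (median 10.8), with a difference of 0.05 ± 0.14. None of these passed (limma, adjusted p between 0.807 and 0.849), and the signs of Foxo3 and Nfatc1 turned under both other scalings. Nfatc2 never reached 1 FPKM and was not tested. It ran from 0.13 to 0.62 in SFZ and from 0.04 to 0.25 in DZ, with R3-Cntl SFZ replicate 1 the highest.

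**Figure D2:**
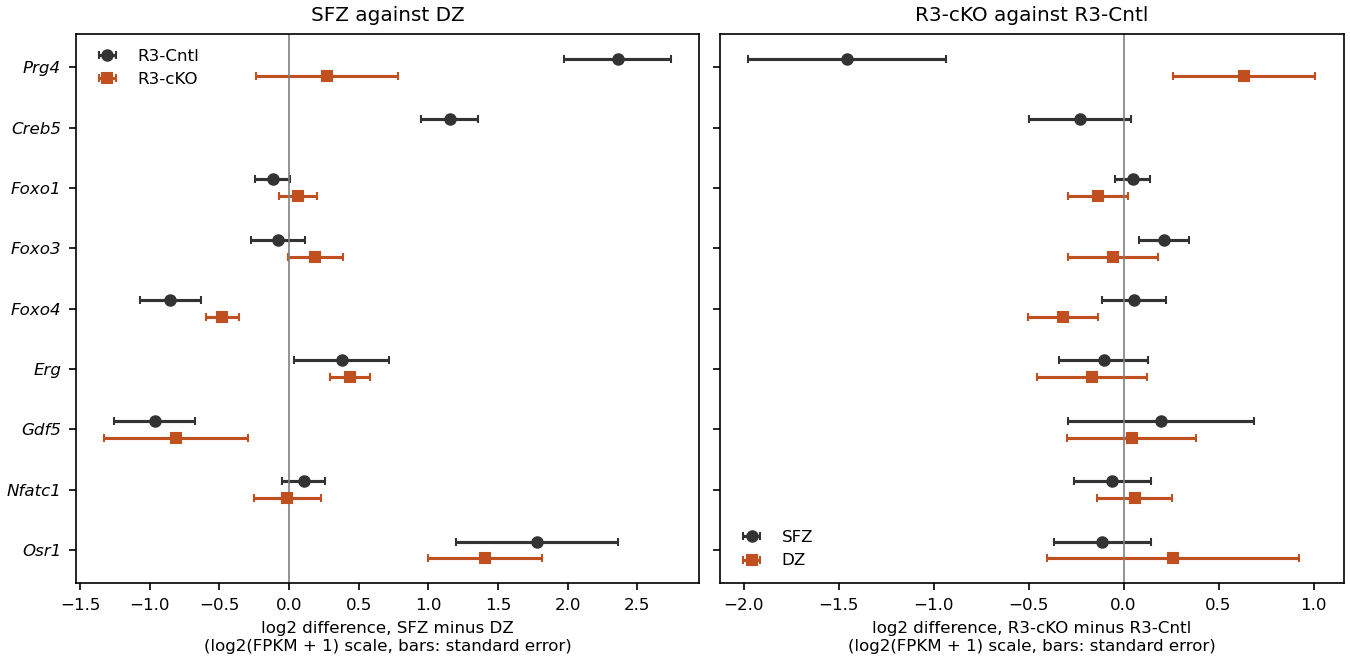
Log2 differences of the 9 testable members with standard errors (limma, 3 against 3 libraries), SFZ minus DZ in each genotype (left) and R3-cKO minus R3-Cntl in each zone (right); Creb5 has no point where it was not tested, and Nfatc2 has none. The zone differences of Osr1, Foxo4, Gdf5 and Erg have the same sign in both genotypes, and so do those of Prg4, which are 2.36 and 0.27.

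Between the genotypes Prg4 was the one tested member whose SFZ libraries did not overlap. Its 3 SFZ libraries labelled R3-cKO (2.13 to 6.95 FPKM) all lay below the 3 R3-Cntl libraries (7.13 to 22.24), though 6.95 and 7.13 are nearly equal. The mean level was 12.6 ± 8.39 FPKM in R3-Cntl and 3.85 ± 2.69 in R3-cKO (SD, n = 3). The difference was -1.45 ± 0.52 and no gene of 11537 (0.00%) passed adjustment in this comparison (limma, unadjusted p = 0.0307, adjusted p = 1.0; 34 genes had an unadjusted p under 0.05, which is 0.295% of genes). Without R3-cKO SFZ replicate 2 that share was 10.5% (1204 genes) and Prg4 had an unadjusted p of 0.0867. The exact permutation test gave two-sided p = 0.1, the smallest that 3 against 3 libraries allow. The share of genes whose SFZ genotypes did not overlap was 2.40%, and 1 of 9 members tested was among them. The osteoblast marker sum in SFZ was 32.3 to 69.8 FPKM in R3-Cntl and 21.6 to 43.5 under the R3-cKO label, with overlap. Its part in the Prg4 difference was not tested.

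None of the 8 regulators tested passed between the genotypes in SFZ. Creb5 differed by -0.23 ± 0.27, Osr1 by -0.11 ± 0.26, Erg by -0.10 ± 0.24 and Nfatc1 by -0.06 ± 0.20, while Foxo3 differed by 0.21 ± 0.13, Gdf5 by 0.20 ± 0.49, Foxo4 by 0.06 ± 0.17 and Foxo1 by 0.05 ± 0.09 (SE, limma; adjusted p = 1.0 for each). The Creb5 value came from SFZ replicate 3 labelled R3-cKO, and without that library it was 0.03.

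In DZ the Prg4 difference had the opposite sign. Its levels were 5.72, 1.32 and 2.14 FPKM under the R3-cKO label and 1.39, 1.22 and 1.47 in R3-Cntl, of which replicate 1 labelled R3-cKO at 5.72 was by far the highest. The difference was 0.63 ± 0.38 (limma, adjusted p = 0.999). Blocked by replicate number, which was treated as a pairing of the DZ libraries, its adjusted p was 0.353 (limma). The difference was 0.20 without R3-cKO DZ replicate 1, 0.96 without R3-cKO DZ replicate 2 and between these with any other library left out. No gene passed adjustment in DZ, where 0.00% of genes were called and 404 of 11091 (3.64%) had an unadjusted p under 0.05, or 1830 with the block. No member was among the 404. Within the same-numbered DZ pairs Prg4 was higher under the R3-cKO label in all 3. Foxo1 was lower in all 3, at 0.921, 0.907 and 0.878 times its R3-Cntl level, and the other members went both ways. Of the marker sums, those of osteoblast and macrophage genes did not overlap between the DZ genotypes. The osteoblast list stood at 16.6 to 23.4 FPKM in R3-Cntl and at 9.22 to 12.9 under the R3-cKO label. For the macrophage list they were 6.32 to 20.4 and 3.71 to 6.31, though 6.32 and 6.31 are nearly equal. Their part in the genotype values was not tested. Osr1 differed by 0.26 ± 0.66, Foxo4 by -0.32 ± 0.18, Erg by -0.17 ± 0.29, Gdf5 by 0.04 ± 0.34, Foxo1 by -0.13 ± 0.16, Foxo3 by -0.06 ± 0.24 and Nfatc1 by 0.06 ± 0.20. With 1 library left out, Foxo4 ran from -0.50 to -0.16 and Foxo1 from -0.24 to -0.04. The genotype effect of Prg4 in SFZ minus that in DZ was -2.09 ± 0.70 (limma, unadjusted p = 0.0132, adjusted p = 0.999), with 99 of 11765 genes (0.841%) at an unadjusted p under 0.05 and 0.00% passing. Among the members only Prg4 had an unadjusted p under 0.05 in that comparison, and the values of the other 8 lay between -0.37 and 0.38.

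The order of the levels changed with zone and genotype mainly through Prg4, Osr1 and Foxo4. In R3-Cntl SFZ, Osr1 was highest at a mean of 21.2 FPKM, then Prg4 at 12.6, Nfatc1 at 11.6, Foxo3 at 10.7 and Foxo4 at 10.3, and neighbours among these 5 overlapped. In R3-cKO SFZ, Prg4 ranked 8 of 10, at 3.85, between Gdf5 at 4.20 and Creb5 at 1.78, with overlapping ranges on both sides. In R3-Cntl DZ, Foxo4 led at 19.5 FPKM and Prg4 again ranked 8, at 1.36, apart from both Erg at 3.67 and Creb5 at 0.44. Creb5 and Nfatc2 were the lowest members in every group, and their ranges overlapped only in DZ.

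The likeness of each regulator to Prg4 was taken within a zone, since the zones form separate clusters and a correlation over all 12 libraries would largely restate the zone difference. The points of each zone are 6 libraries over both genotypes. In SFZ, Creb5 had a Pearson r with Prg4 of 0.58 (Spearman rho 0.70), Erg 0.53 and Nfatc1 0.53, which were the 88.3, 85.1 and 85.0 percentiles among the genes tested. Of the 8 other members tested, 3 had r of 0.5 or more, where 16.7% of genes did. Foxo4 had r = 0.44, and Osr1, Foxo3, Foxo1 and Gdf5 lay between -0.16 and -0.10. Without the 2 SFZ libraries farthest from the median of Prg4, r of Creb5 was 0.11, of Erg 0.35 and of Nfatc1 -0.63, so these values rested on those libraries. The count of 3 became 6 with genotype means removed and 1 to 4 with 1 library left out. In those omissions r of Creb5 ran from 0.21 to 0.77.

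In DZ none of the 8 had an r of 0.5 or more, where 11.0% of genes did. Creb5 had r = 0.03, the 48.9 percentile, and Foxo1 had the highest value, 0.36. Gdf5 at -0.46 and Osr1 at -0.34 were the lowest. Without the 2 DZ libraries farthest from the median of Prg4 the order changed. Gdf5 then had -0.16, Osr1 -0.002, Creb5 -0.30, Nfatc1 -0.34, Foxo1 0.59 and Foxo3 0.54. With 1 library left out, Osr1 ran from -0.87 to 0.18 and Foxo1 from -0.03 to 0.71. The DZ library with the highest Prg4, R3-cKO replicate 1, had Osr1 at 3.05 and Creb5 at 0.56 FPKM. After zone means were removed over all 12 libraries, Creb5 had r = 0.42 with Prg4 (the 89.4 percentile) and the other 7 tested lay between -0.21 and 0.24. These correlations are descriptions over few libraries that share their preparation.

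**Figure D3:**
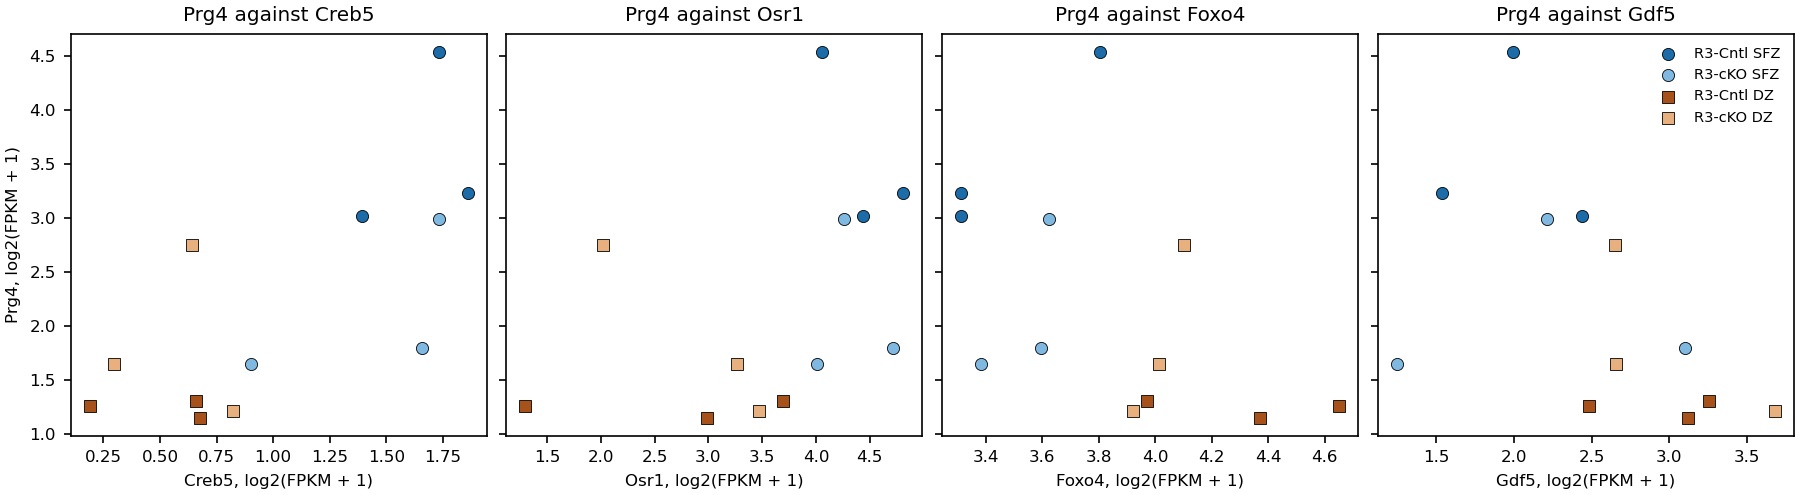
Prg4 against Creb5, Osr1, Foxo4 and Gdf5, both axes log2(FPKM + 1), 1 point per library (circles SFZ, squares DZ). SFZ and DZ libraries are apart along the Creb5, Osr1 and Foxo4 axes, while the SFZ libraries labelled R3-cKO lie lower on the Prg4 axis than those of R3-Cntl; their Osr1 levels are within or near those of R3-Cntl SFZ, and so are their Creb5 levels but for replicate 3, which has the lowest Prg4 in SFZ (2.13 FPKM) and Creb5 at 0.87, near the DZ range.

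**Figure D4:**
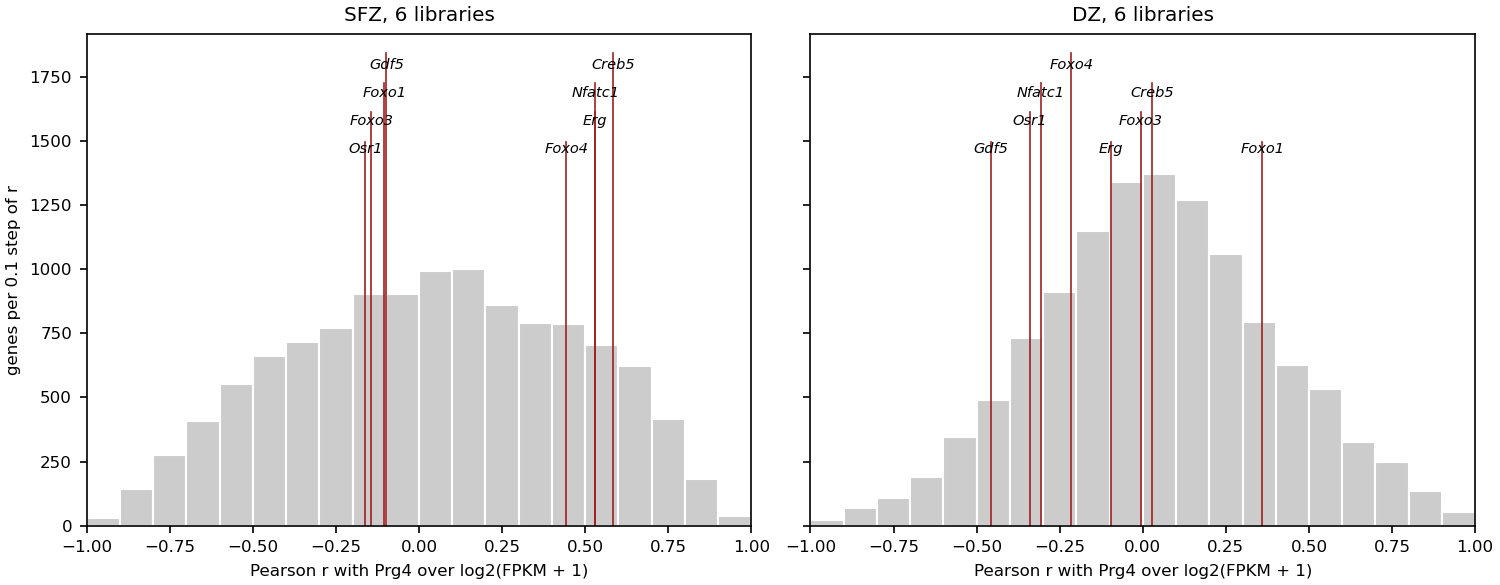
Pearson r with Prg4 within each zone (horizontal axis, 6 libraries) for all genes tested (bars, genes per 0.1 step) and for 8 members (lines). In SFZ, Creb5, Erg and Nfatc1 lie above 0.5, and in DZ no member does.

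By the rule of highest correlation, the genes most like Prg4 over all 12 libraries were Gimap1 (r = 0.90), Septin8 (0.87, listed in the table under a date-like form of its name), Spef1 (0.87), Agbl2 (0.86) and Fam53a (0.86). After zone means were removed they were Litaf (0.87), Gimap1 (0.85), Agbl2 (0.82), Lrrc3 (0.81) and Spef1 (0.81). None of the members was among either set. Of these genes, Gimap1, Agbl2, Lrrc3 and Spef1 were near the filter of 1 FPKM. Their group means were 1.03 to 1.66, 1.19 to 2.1, 0.94 to 1.36 and 0.93 to 2.26 FPKM, in that order. The group means of Septin8, Fam53a and Litaf were at least 13.6. As the highest r among all genes tested, the values of both sets describe a ranking only. Over all 12 libraries, where r includes the zone difference, Creb5 had r = 0.72 (the 98.1 percentile), Gdf5 -0.53 (2.46) and Foxo4 -0.47 (3.65). The other tested regulators lay between 0.03 and 0.50 there. Litaf was at 29.2 ± 2.75 FPKM in R3-Cntl SFZ, 25.9 ± 7.07 in R3-cKO SFZ, 23.2 ± 0.28 in R3-Cntl DZ and 27.2 ± 3.71 in R3-cKO DZ (SD, n = 3).

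Relatives and pathway genes of the regulators were counted between the zones in 7 lists, over both genotypes. Each count is set against the share of all genes called, 18.9% higher and 4.30% lower in SFZ as deposited. The lists were chosen with earlier results of these data known, so no excess over that share is read from any of them. These shares were 7.34% and 10.5% after quantile normalization and 9.54% and 8.41% with size factors. In a list of 14 NFAT and calcineurin genes 4 (28.6%) were called higher and 1 (7.14%) lower, against 18.9% and 4.30% of all genes, with a median difference of 0.11 against 0.14 over all genes tested. The same 4 and 1 genes were called under both other scalings, where 7.34% and 9.54% of all genes were higher. Nfatc4, an NFAT factor like Nfatc1, had a median of 0.65 FPKM in DZ and of 10.4 in SFZ (2.64 ± 0.29, limma, adjusted p = 0.000437). Nfatc4 and Homer2 reached 1 FPKM in all 6 SFZ libraries but in only 2 and 1 DZ libraries, so both entered the test through the zone in which they were high. The 28.6% includes them under every scaling, so no excess over the share of all genes is read from it. Homer3 and Ppp3cb, a calcineurin catalytic subunit, were also higher, and Ppp3ca, another catalytic subunit, was lower (-0.32 ± 0.09, adjusted p = 0.0215).

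The odd-skipped and joint interzone list held both directions. Osr2, the paralog of Osr1, was at a median of 10.1 FPKM in SFZ and 1.75 in DZ (2.15 ± 0.23, limma, adjusted p = 0.000415). Of 12 genes of this list tested, Osr2 was the 1 called higher in SFZ (8.33%, against 18.9% of all genes), while Sox5 and Sox6, transcription factors of cartilage, and Has2, a hyaluronan synthase, were the 3 called lower (25.0%, against 4.30%). These counts were the same under both other scalings, where the share of all genes called lower was 10.5% and 8.41%. The list's median was 0.07 as deposited and -0.08 under each of the others.

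The GDF5 and BMP pathway had 5 of 22 tested genes (22.7%) higher and none lower in SFZ, close to the 18.9% of all genes called higher, with a median of 0.25. Bmp4, a ligand, was at a median of 43.4 FPKM in SFZ and 10.9 in DZ (2.26 ± 0.60, limma, adjusted p = 0.021). Bmpr1b, the receptor that GDF5 prefers, rose by 0.77 ± 0.17, and Chrd, Chrdl1 and Acvr2a were the other 3. Under each of the other scalings 2 of the 5 were called, Bmp4 and Bmpr1b (9.09%, against 7.34% and 9.54% of all genes).

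The CREB and ATF family had 8 of 17 genes (47.1%, against 18.9% of all genes) higher and 1 (5.88%, against 4.30%) lower in SFZ, with a median of 0.28. Under each of the other scalings 3 genes were called higher (17.6%, against 7.34% and 9.54%), Atf1, Atf2 and Creb3l1, and the same 1 lower (against 10.5% and 8.41%). Creb3l1 rose by 1.16 ± 0.24 (limma, adjusted p = 0.00773), Atf1 and Atf2 rose by 0.50 each, and Creb3l2, a membrane-bound factor of the same subfamily as Creb3l1, was lower by 0.96 (adjusted p = 0.00156).

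Among 21 genes of the FoxO pathway and its targets, Sirt1, a deacetylase, and Cdkn1b, a cell cycle inhibitor, were called higher (9.52%, against 18.9% of all genes) and Bnip3, a mitophagy receptor, lower (4.76%, against 4.30%; -1.49 ± 0.26, limma, adjusted p = 0.00332), and the median was 0.17. Bnip3 was called under both other scalings, Sirt1 with size factors alone and Cdkn1b under neither. Among 14 ETS genes, Fli1, Gabpa, Elf1 and Etv4 were higher (28.6%, against 18.9% of all genes). Ets1 was lower (7.14%, against 4.30%) by 0.73 ± 0.20, and the list's median was 0.22. Etv4 reached 1 FPKM in 3 SFZ libraries and in no DZ library, so it entered the test through the zone in which it was high. The 28.6% includes it, and no excess over the share of all genes is read from it. After quantile normalization none of the 4 higher genes was called, and with size factors Fli1 was. Ets1 was called lower under both, joined by Etv6 (14.3%, against 10.5% and 8.41% of all genes), which is named to complete the count.

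Of 24 genes of signals linked to Prg4, 8 were called higher (33.3%, against 18.9% of all genes) and 2 lower (8.33%, against 4.30%) in SFZ, with a median of 0.30. Under each of the other scalings 6 were called higher (25.0%, against 7.34% and 9.54% of all genes) and 4 lower (16.7%, against 10.5% and 8.41%). Egfr rose by 1.53 ± 0.38, Tgfbr3, the type III TGF-beta receptor, by 1.39 ± 0.34, Prkaca, a catalytic subunit of protein kinase A, by 0.61 ± 0.12 and Piezo1, a mechanically gated channel, by 0.46 ± 0.11 (limma, adjusted p from 0.00541 to 0.0156). Pth1r, the receptor of parathyroid hormone-related protein, was lower by 1.10. The other lower gene was Trpv4, a cation channel opened by osmotic and mechanical stimuli, by 1.16; it is named to complete the count, after its value was seen. No gene of any of the 7 lists was called between the genotypes in either zone, as no gene of the whole table was.

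**Figure D5:**
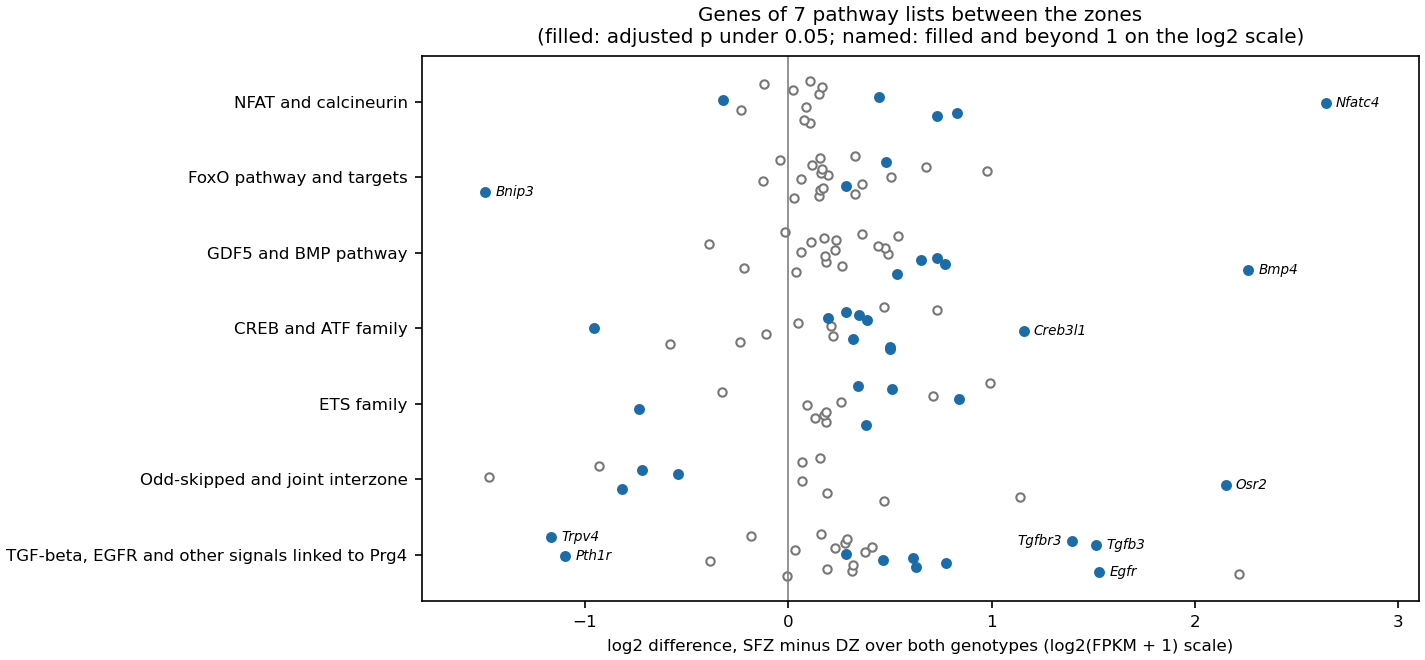
Zone differences (SFZ minus DZ over both genotypes, log2(FPKM + 1) scale) of the tested genes of 7 pathway lists; filled points have an adjusted p under 0.05 and those beyond 1 on the log2 scale are named. Nfatc4, Bmp4 and Osr2 lie farthest to the right among the called genes.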

How the data were processed

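RNA was sequenced from cultured SFZ and DZ chondrocytes of R3-Cntl and R3-cKO mice, 4 groups of 3 libraries, grouped by the labels. The deposited table holds FPKM values made by the authors, named in the table as trimmed-mean normalized; the submitters' processing notes name Bowtie 0.12.2 and mm9. The methods of the study also name quantile normalization, which these values do not carry in full. No counts were given, so the depth of each library is unknown and no counting interval can be set. Sums of FPKM ran from 392241 to 429213. Columns without a sample numbered 0.

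The members and the gene lists were chosen with earlier results of these data known. Values were tested as log2(FPKM + 1) with limma 3.58.1 (trend, R 4.3.3) on genes at 1 FPKM or more in at least 3 libraries of the comparison. P-values were adjusted by Benjamini-Hochberg over all genes tested, with calls at an adjusted p under 0.05. A fold change on this scale understates that of low genes. The 6 comparisons were the zones over both genotypes and within each, the genotypes within each zone, and the difference between these genotype effects. Members were also tested by exact two-sided permutation (30 tests). The code was tested on simulated data. Likeness to Prg4 used Pearson and Spearman correlations. Named genes were the members, Runx3, up to 5 genes per list with the lowest p between the zones, and the 5 genes most like Prg4 by each of 2 measures. Besides these, Trpv4 and Etv6 were named to complete counts, and Col2a1 and Acan as marker genes. The marker genes Col3a1, Tnmd, Cd34, Thy1, Alpl and Mmp13 were named after their values were seen. Gene positions are from GENCODE on mm9 and promoters from RefSeq (GRCm38.p6). Alternatives were 2 other pseudocounts, no filter, 2 other scalings, the replicate number as a block, each library left out and a single model. In the comparisons of all 12 libraries the block was each replicate number within a genotype, which treats the zones as paired in both genotypes. Same-numbered libraries deviated together for the genotypes in DZ (correlations of 0.65, 0.78 and 0.69) and for the zones in R3-cKO (0.42, 0.78 and 0.65) over 11359 genes. The block was treated as a pairing only there. That pairing was read from the same expression values, and no source used here states it.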

Additional observations from a re-analysis of the deposited data

Results flagged for a closer look

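The genotype effect of Prg4 had opposite signs in the 2 zones, and the test of the difference drew attention to it. In SFZ all 3 libraries labelled R3-cKO lay below every R3-Cntl library, and in DZ 2 of the 3, at 5.72 and 2.14 FPKM, lay above the highest R3-Cntl library at 1.47. Within the same-numbered DZ pairs the R3-cKO level was 4.12, 1.08 and 1.46 times that of R3-Cntl, higher in all 3. The effect in SFZ minus that in DZ was -2.09 ± 0.70 on the log2 scale, with an unadjusted p of 0.0132 and an adjusted p of 0.999 (limma), and it ran from -2.51 to -1.62 with 1 library left out. The effect in DZ, 0.63, was 0.20 without R3-cKO DZ replicate 1 and 0.96 without R3-cKO DZ replicate 2. Replicate 1 was the highest library in R3-Cntl SFZ, at 22.24 FPKM, in R3-cKO SFZ, at 6.95, and in R3-cKO DZ, at 5.72, but not in R3-Cntl DZ.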

How the results depend on the processing

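Creb5, Osr1 and Foxo4 kept their direction and their call between the zones over both genotypes under all 18 alternatives run. Of the 3 members called in that comparison, leaving out 1 library left 3 to 5 called, while 13.9% to 24.7% of all genes were; the 5, with Prg4 and Gdf5 added, came without R3-cKO SFZ replicate 2, where the share was 24.7%. Prg4 ranged from 0.99 to 1.63 there. In R3-Cntl the count of 1 member called became 0 with a pseudocount of 5, with no filter, after quantile normalization and with size factors, where Prg4 had 1.37, 2.36, 2.10 and 2.22 (limma, adjusted p = 0.0668, 0.0869, 0.0714 and 0.063), and 3 in a single model of all 12 libraries. The 3 in the single model were Prg4, Creb5 and Foxo4 (limma, adjusted p = 0.0247, 0.0281 and 0.0264). Leaving out 1 library gave 0 to 1 member called and Prg4 values of 1.89 to 2.65. Over all genes the 140 calls in R3-Cntl became 29, 0, 4, 18 and 798 under those settings and 88 with a pseudocount of 0.1; the 2 in R3-cKO became 7 without a filter and 165 in the single model. With 1 library left out, the calls in R3-Cntl ran from 0 to 505 and those in R3-cKO from 0 to 5. Genes at an unadjusted p under 0.05 between the genotypes in SFZ went from 34 to 1204 without R3-cKO SFZ replicate 2 and to between 12 and 101 without any other library, those in DZ from 404 to between 211 and 773, and those for the difference between the zones from 99 to between 36 and 714. The cause of these changes was not tested.

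Same-numbered libraries did not deviate together for the genotypes in SFZ (0.79, -0.09 and -0.42) or the zones in R3-Cntl (0.58, 0.11 and -0.15). Some differently numbered ones did. R3-Cntl SFZ replicates 2 and 3 went with R3-cKO SFZ replicates 3 and 2 (0.45 and 0.69). They also went with R3-Cntl DZ replicates 3 and 2 (0.38 and 0.58). The cause was not tested. With the replicate block, 6 members were called between the zones over both genotypes, where the share of all genes rose from 23.2% to 33.7%, Prg4 (1.32, adjusted p = 0.0484), Gdf5 (0.00957) and Erg (0.0305) being added, and 3 in R3-Cntl, where the calls over all genes went from 140 to 831. The 3 in R3-Cntl were Prg4, Creb5 and Foxo4 (limma, adjusted p = 0.0338, 0.0479 and 0.0349). The zones in R3-cKO, treated as paired, went from 2 to 352 calls, and the block changed no other call of a member.

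Values near 0 changed sign. Between the zones over both genotypes quantile normalization and size factors gave -0.11 and -0.086 for Foxo3 and -0.13 and -0.093 for Nfatc1. In R3-Cntl they gave -0.12 and -0.061 for Nfatc1, and in R3-cKO -0.075 and -0.038 for Foxo1. Between the genotypes in DZ they gave -0.056 and -0.002 for Gdf5, and quantile normalization gave -0.015 for Nfatc1. With 1 library left out, Foxo1 ran from -0.077 to 0.025, Foxo3 from -0.021 to 0.16 and Nfatc1 from -0.013 to 0.14 between the zones over both genotypes. In R3-Cntl, Foxo3 ran from -0.22 to 0.12 and Nfatc1 from -0.014 to 0.18. In R3-cKO, Prg4 ran from -0.15 to 0.71, Foxo1 from -0.026 to 0.17 and Nfatc1 from -0.14 to 0.19. Between the genotypes in SFZ, Creb5 ran from -0.38 to 0.033, Foxo4 from -0.026 to 0.22, Erg from -0.36 to 0.043, Gdf5 from -0.26 to 0.67, Nfatc1 from -0.16 to 0.14 and Osr1 from -0.31 to 0.075. In DZ, Foxo3 ran from -0.24 to 0.14, Erg from -0.38 to 0.16, Gdf5 from -0.30 to 0.22, Nfatc1 from -0.12 to 0.19 and Osr1 from -0.42 to 0.78. For the difference between the zones in genotype effect, Erg ran from -0.27 to 0.28, Gdf5 from -0.30 to 0.63, Nfatc1 from -0.25 to 0.086 and Osr1 from -0.89 to 0.31.

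Of the 8 regulators tested, 3 had r of 0.5 or more with Prg4 in SFZ. This became 0 without the 2 libraries farthest from the median of Prg4, 6 with genotype means removed and 1 to 4 with 1 library left out. In DZ the count of 0 became 2, 1 and 0 to 1. Depth could not be judged, and the low levels of Creb5 and Nfatc2 are the values it limits most.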
